A study of Rattus norvegicus with 12 samples.

Results

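The Reg proteins and the pancreatic stress genes Nupr1 and Clu were examined across 12 Affymetrix RAE230-A arrays of rat whole pancreas. The members were all probe sets whose annotated gene symbol was Reg1a, Reg3a, Reg3b, Reg3g, Reg4, Nupr1 or Clu, which gave 7 probe sets of 6 genes among the 15866 probe sets tested. Reg1a, Reg3a, Reg3b, Reg3g and Nupr1 had 1 probe set each and Clu had 2, called A and B in the order of their identifiers, whereas Reg4 was not analysed here. The arrays formed 4 groups of 3, all of adult male Wistar rats: healthy animals without treatment (HU) or with it (HT), and diabetic animals without treatment (DU) or with it (DT). Diabetes was induced in DU and DT animals with streptozotocin, a toxin of the insulin-producing beta cells, and HT and DT animals received sodium tungstate, an oral anti-diabetic agent. Tungstate was labelled as given at 0.7 g/L for 1 week and then at 2 g/L for 4 to 5 weeks, in DT animals until glycemia came near to normal. The methods describe only the higher dose, and the paper describes glycemia in treated diabetic animals as partially restored. Untreated animals were kept for 5 to 6 weeks. Each array held pooled RNA of 3 rats, so that every error and p-value reflects the spread between pools and not between rats.

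Reg proteins are small secreted lectin-like proteins made mainly by acinar cells, the enzyme-secreting cells of the exocrine pancreas. The Reg3 proteins are made at low levels in the resting gland and are strongly induced in pancreatitis, Reg3b being also known as pancreatitis-associated protein. Their induction runs through cytokines that act on the transcription factor Stat3. Nupr1, first known as p8, is a small chromatin-bound protein induced in acinar cells by injury and by the integrated stress response. Clu encodes clusterin, a secreted chaperone that binds misfolded proteins and blocks the terminal complement complex. In whole-pancreas RNA, fewer cells of a type and less RNA per cell cannot be told apart.

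The start regions of these genes are shown because Reg3a and Reg3b varied most between arrays, with Reg3g as their dim relative, and because Nupr1 was the member that passed the test with diabetes. In the RefSeq annotation of the rat build GRCr8, Reg3b, Reg3a, Reg1a and Reg3g follow each other on chromosome 4, with a Reg3b pseudogene between Reg3b and Reg3a and a long non-coding RNA gene between Reg1a and Reg3g. The 250 bases before each annotated start were taken from RefSeq, which listed such a window for 6 of the 7 members, all but Clu. They lie at chr4:112419526-112419775 (plus strand) for Reg3b, chr4:112430147-112430396 (plus strand) for Reg3a, chr4:112484739-112484988 (minus strand) for Reg3g and chr1:190645902-190646151 (minus strand) for Nupr1. Capitals mark, in the Reg3 windows, runs of 8 or more bases found in all 3 of them and, in Nupr1, a match to the element TGATGCAA (TTGCATCA on the other strand), which CCAAT enhancer binding protein and ATF pairs are known to bind.
Reg3b: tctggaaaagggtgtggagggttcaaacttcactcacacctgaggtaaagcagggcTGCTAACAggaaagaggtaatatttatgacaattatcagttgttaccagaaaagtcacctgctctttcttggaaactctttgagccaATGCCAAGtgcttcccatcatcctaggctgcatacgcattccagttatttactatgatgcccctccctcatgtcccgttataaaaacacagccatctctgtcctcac
Reg3a: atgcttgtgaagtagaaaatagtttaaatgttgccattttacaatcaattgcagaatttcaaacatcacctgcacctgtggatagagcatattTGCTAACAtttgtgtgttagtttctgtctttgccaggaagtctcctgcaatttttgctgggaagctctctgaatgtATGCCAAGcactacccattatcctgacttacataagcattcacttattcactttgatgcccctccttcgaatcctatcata
Reg3g: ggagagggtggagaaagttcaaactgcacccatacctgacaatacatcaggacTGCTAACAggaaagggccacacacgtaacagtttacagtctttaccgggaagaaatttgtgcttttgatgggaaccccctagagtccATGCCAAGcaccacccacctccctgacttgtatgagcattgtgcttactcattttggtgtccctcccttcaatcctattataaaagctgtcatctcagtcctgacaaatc
Nupr1: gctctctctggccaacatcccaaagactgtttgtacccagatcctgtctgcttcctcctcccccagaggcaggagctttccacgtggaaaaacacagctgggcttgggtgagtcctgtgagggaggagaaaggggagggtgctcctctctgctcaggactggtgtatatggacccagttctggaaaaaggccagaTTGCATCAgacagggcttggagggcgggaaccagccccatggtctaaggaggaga
The shared runs, TGCTAACA and ATGCCAAG, stood in the same order in the 3 Reg3 windows and occurred, on either strand, in 0.689% and 1.21% of 33360 rat windows of this length. In gapped alignments, Reg3b shared 63.6% of its bases with Reg3a and 68.4% with Reg3g, against 50.8% to 53.6% between Nupr1 and any Reg window. The Reg3 windows shared less with other Reg genes, 55.2% to 60.8% with Reg1a and 53.2% to 58.0% with Reg4. The range of Reg4 overlapped that of Nupr1. The Stat motif TTCNNNGAA, present in 7.68% of all windows, matched once in Reg3b, 129 to 121 bases before the start, and once in Reg1a, 242 to 234 bases before it. TATAAA matched in Reg3b, Reg1a and Reg3g and in 12.9% of all windows, while the AP-1 motif TGANTCA, present in 6.35%, matched in no member. The element of the Nupr1 window, 55 to 48 bases before its start, was present in 0.692% of all windows. These matches describe letters only.

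The deposited values are log2 intensities, so that a difference of 1 stands for a doubling. Array medians lay between 6.634 and 6.701, and the arrays had been scanned on 6 days on chips of 3 lots. DU and HU arrays were never scanned on the same day. The 21 acinar markers averaged 12.80 to 13.46 on every array, and none of them was among the dimmest 25% of probe sets on all arrays. A probe set was taken to have changed where limma's adjusted p, over all 15866 probe sets, was below 0.05. All 7 beta cell markers were lower in DU than in HU animals, with a median difference of -1.88. Of them, 4 passed this test, beside 3.2% of all probe sets.

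Reg3a, which encodes a secreted lectin of the family, differed widely among arrays of the same group in HU, DU and DT animals. In HU animals it measured 12.87, 8.36 and 9.16 on arrays 1 to 3, and in HT animals 8.34, 8.82 and 8.91. In DU animals it measured 9.24, 11.95 and 13.58, and in DT animals 12.93, 9.12 and 8.99. Single arrays of HU and DT animals and 2 DU arrays were high, and no HT array was. The HT arrays were below all DU and DT arrays, and every other pair of groups overlapped. The range within a group was 22.9-fold in HU, 20.3-fold in DU and 15.4-fold in DT animals, but 1.48-fold in HT animals.

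Reg3b, the pancreatitis-associated protein, was high on the same arrays. It measured 13.29, 8.89 and 8.86 in HU animals and 8.61, 8.45 and 8.70 in HT animals. In DU animals it measured 9.24, 11.83 and 13.82, and in DT animals 10.89, 9.16 and 8.10. HU1, DU2, DU3 and DT1 were above 10 for both genes, and the other 8 arrays were at or below 9.24 for both, as the plot of Reg3a against Reg3b shows. Across the 12 arrays Reg3b spanned 52.8-fold and Reg3a 37.9-fold.

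**Figure D1:**
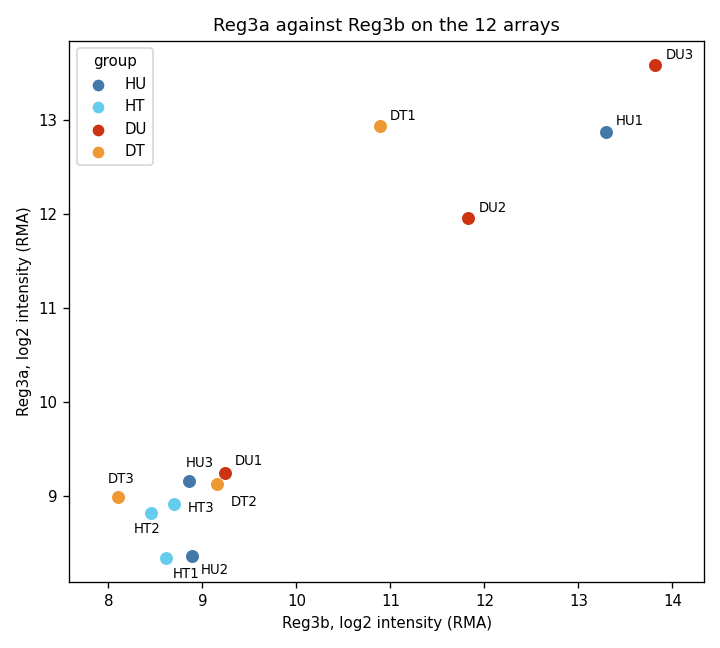
Log2 intensity of Reg3a (vertical axis) against Reg3b (horizontal axis), 1 point for each of the 12 arrays, coloured by group. HU1, DU2, DU3 and DT1 sit apart at the upper right, and the other 8 arrays, all 3 HT arrays among them, lie at or below 9.24 on both axes.

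Arrays that shared both scan day and chip lot were on either side of this gap. HU1 and HU2 were scanned on the same day on chips of 1 lot, and Reg3a was 12.87 on HU1 and 8.36 on HU2. DT1 and DT2 also shared day and lot, and Reg3a was 12.93 on DT1 and 9.12 on DT2. Cell type markers differed far less between HU1 and HU2, with mean levels of 13.38 on both for 21 acinar markers, 8.01 and 8.03 for 10 duct markers, 6.74 and 6.70 for 10 intestinal epithelium markers and 7.73 and 7.42 for 18 leukocyte markers. Of the 10 intestinal epithelium markers, 1 was among the dimmest 25% of probe sets on all 12 arrays. Many acinar markers were very bright with narrow ranges, such as 14.35 to 14.53 for Ctrc, so that their mean has little room to differ. Between DT1 and DT2 the means were 13.40 and 13.36 for acinar, 8.11 and 7.89 for duct, 6.86 and 6.65 for intestinal epithelium and 6.99 and 7.25 for leukocyte markers. The 3′ minus 5′ difference of the actin control probe sets, a sign of RNA integrity, was -0.24 on HU1 and -0.28 on HU2, and -0.03 on DT1 and -0.52 on DT2. The part of these measures in the Reg levels was not tested.

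Reg1a, which encodes lithostathine, an abundant protein of pancreatic juice, was bright everywhere. It measured 13.97, 12.63 and 13.46 in HU animals and 11.94, 12.96 and 12.39 in HT animals. In DU animals it measured 13.76, 14.06 and 14.17, and in DT animals 14.19, 13.31 and 12.70. The group means fell in the order DU (14.00 ± 0.21, SD, n = 3), DT (13.40 ± 0.75), HU (13.35 ± 0.68) and HT (12.43 ± 0.51), and no neighbours in this order differed by the test. The DU and HT arrays did not overlap, but these groups differ in both diabetes and treatment and were not compared.

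Reg3g, a bactericidal lectin of the family, was dim and varied by at most 1.94-fold over the 12 arrays. It measured 6.69, 6.16 and 5.73 in HU animals and 6.02, 5.92 and 6.13 in HT animals. In DU animals it measured 5.90, 6.07 and 6.58, and in DT animals 6.26, 6.16 and 5.85. Every pair of groups overlapped. Nevertheless, in 3 of the 4 groups a single array was highest for all 4 Reg genes, namely HU1, DU3 and DT1, and in HT animals HT3 was highest for Reg3a, Reg3b and Reg3g and HT2 for Reg1a. The probe sequences were not used here, and hybridization of one Reg transcript to the probe set of another was not tested.

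**Figure D2:**
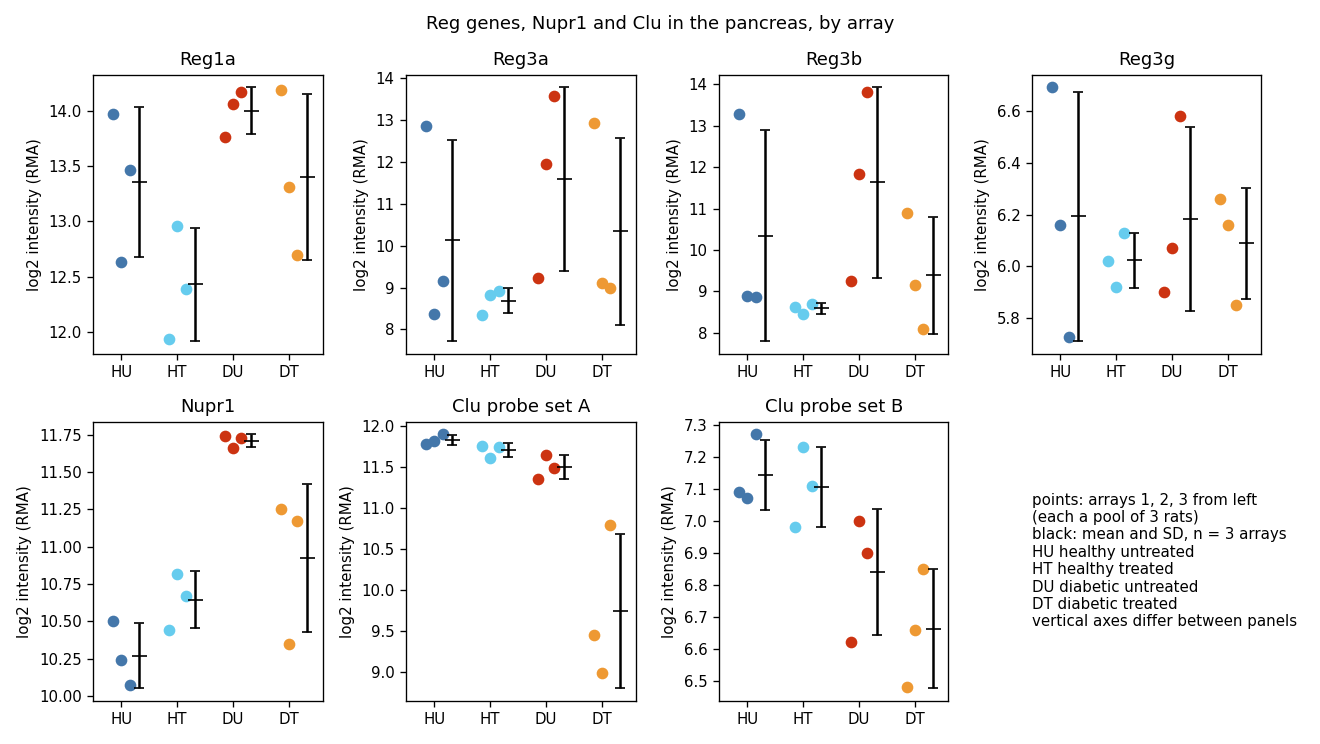
Log2 intensity of the 7 probe sets in the 4 groups, 1 panel per probe set with its own vertical axis; points are arrays 1, 2 and 3 from left, and the black bars are the mean and SD of 3 arrays. Reg3a and Reg3b scatter widely within HU, DU and DT animals, Nupr1 is highest on the 3 DU arrays, and Clu probe set A is lowest on the 3 DT arrays.

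The spread of Reg3a and Reg3b within groups was the widest of the whole array. The SD within groups, pooled over the 4 groups, was 1.98 for Reg3a (rank 1 of 15866) and 1.86 for Reg3b (rank 2), followed by 1.01 for the probe set at rank 3. The median of all probe sets was 0.13 and the 99th percentile 0.38. Reg1a followed at 0.58 (rank 34), Clu probe set A at 0.48 (rank 71), Reg3g at 0.32 (rank 310) and Nupr1 at 0.29 (rank 477), while Clu probe set B was at 0.16 (rank 4569).

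**Figure D3:**
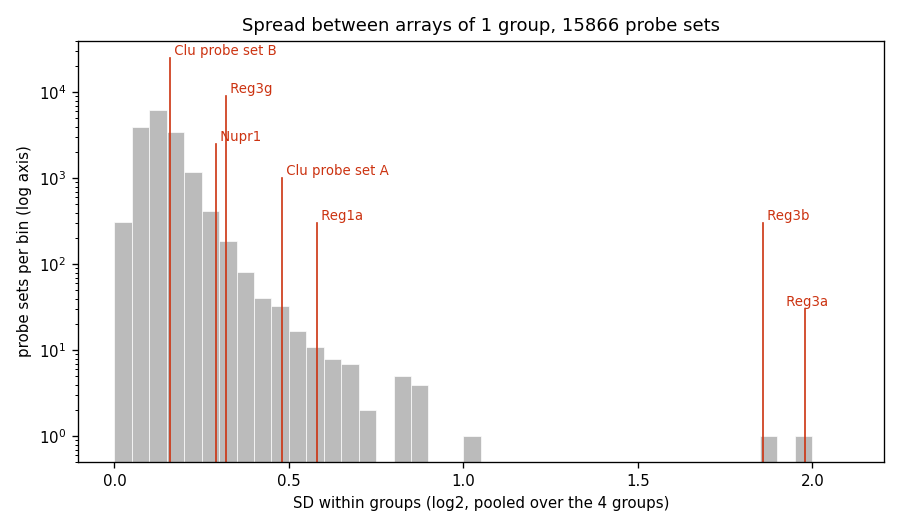
Number of probe sets (vertical axis, log scale) by their SD within groups (horizontal axis, log2 units, pooled over the 4 groups of 3 arrays), with the 7 member probe sets marked by red lines. Reg3a at 1.98 and Reg3b at 1.86 stand beyond all other probe sets.

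With this spread, no Reg gene passed the test in any comparison, and the intervals left wide ranges. Between DU and HU animals, Reg3a differed by 1.46 on the log2 scale (SE 1.26, adjusted p = 0.554), with a 95% interval from 0.423-fold to 18-fold. Reg3b differed by 1.29 (SE 1.17, adjusted p = 0.581), with an interval from 0.422-fold to 14.1-fold. Reg1a differed by 0.65 (SE 0.37, adjusted p = 0.349) and Reg3g by -0.01 (SE 0.21, adjusted p = 0.983). Changes of many fold in Reg3a and Reg3b therefore lie within what these arrays could not resolve.

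Between DT and DU animals, Reg3b differed by -2.25 (SE 1.17, adjusted p = 0.578) and Reg3a by -1.25 (SE 1.26, adjusted p = 0.845). Within scan day 1, which held DT1, DT2 and DU1, the difference was of the other sign, 1.78 for Reg3a and 0.79 for Reg3b. Within chip lot 3, which held DT3 and DU3, it was -4.60 for Reg3a and -5.72 for Reg3b. The direction thus changed with the arrays that were set side by side.

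In healthy animals, Reg1a differed by -0.92 with tungstate (HT vs. HU, SE 0.37, unadjusted p = 0.0264, adjusted p = 0.871). None of the 7 probe sets passed the adjusted test in this comparison, in which 0.0063% of all probe sets did, and 1 of 7 had an unadjusted p below 0.05, against 5.41% of all. Reg3b was lower on each HT array than on any HU array, with a difference of -1.75 (adjusted p = 0.871), and Clu probe set A likewise, with -0.12 (adjusted p = 0.956). These 2 of 7 probe sets without overlap stand beside 11.6% of all probe sets. Reg1a also differed by 0.97 between DT and HT animals (SE 0.37, adjusted p = 0.278).

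The list around the Reg proteins held 31 further genes, mainly receptors, cytokines and signalling genes around Stat3, of which 24 were measured. It mixed activators and inhibitors of this signalling, and the counts do not separate them. In DU vs. HU, 1 of 24 rose and none fell, near the 3.2% of all probe sets that passed, with a list median of 0.02 beside -0.02 for all probe sets. The one that rose was Il11ra1, the receptor of interleukin-11, from 7.79 ± 0.09 in HU to 8.34 ± 0.09 in DU animals (SD, n = 3 each), a difference of 0.55 (SE 0.13, adjusted p = 0.0388). It was also higher in DT than in HU animals, by 0.61 (SE 0.13, adjusted p = 0.0435), and no gene of the list passed limma's adjusted test in DT vs. DU, where 1.12% of all probe sets did, and 4 of 24 had an unadjusted p below 0.05, against 9.89% of all. Stat3 itself, named here after its value was seen, differed by 0.42 between DU and HU animals (adjusted p = 0.198).

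Nupr1 rose in the diabetic pancreas. It measured 10.50, 10.24 and 10.07 in HU animals and 11.74, 11.66 and 11.73 in DU animals, and the 3 DU arrays, which spanned 1.05-fold, lay above all others. It measured 10.44, 10.82 and 10.67 in HT animals and 11.25, 10.35 and 11.17 in DT animals. The difference between DU and HU animals was 1.44, or 2.71-fold, with a 95% interval of 2.04-fold to 3.62-fold (SE 0.19, adjusted p = 0.000967). Nupr1 was the only one of the 7 probe sets that passed in this comparison, in which 3.2% of all probe sets did. Together with both Clu probe sets it made 3 of 7 without overlap between DU and HU arrays, against 29.4% of all.

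In DT animals Nupr1 lay between the DU and HU levels. All 3 DT arrays were below all DU arrays, with a difference of -0.79 (SE 0.19, adjusted p = 0.0822), which missed the threshold. The DT and HU arrays overlapped, with a difference of 0.65 (SE 0.19, adjusted p = 0.118), because DT2, at 10.35, lay within the HU range. Single arrays decided both calls, since DT vs. DU passed without DT1 (adjusted p = 0.0478) and DT vs. HU passed without DT2 (adjusted p = 0.00561). The DT arrays of the same scan day as DU1 averaged -0.94 relative to it, and within chip lot 3 the difference was -0.56. In healthy animals tungstate went with a difference of 0.37 (HT vs. HU, SE 0.19, adjusted p = 0.871). The test of whether the effect of tungstate differed between diabetic and healthy animals, the interaction, gave -1.16 (SE 0.27, adjusted p = 0.133). The order of the means was DU (11.71 ± 0.04), DT (10.93 ± 0.50), HT (10.64 ± 0.19) and HU (10.27 ± 0.21), and no neighbours in it differed by the test.

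Since DU and HU arrays shared no scan day, the rise of Nupr1 was also read within chip lot 1, where DU1 and DU2 were 1.63 above HU3. With scan day as a block the difference was 1.99, but it no longer passed (adjusted p = 0.321). In that fit DU2, DU3, HU1 and HU2 carried no weight, since no other group shared their scan days. Means of cell type markers also differed between DU and HU arrays. The mean of the 21 acinar markers was 12.80 to 12.92 on DU arrays and 13.38 to 13.44 on HU arrays, and that of the 7 beta cell markers was 7.41 to 7.69 and 9.22 to 9.34. On DT arrays these means were 13.27 to 13.40 and 7.71 to 8.27. The median difference of the acinar list was -0.02 in DU vs. HU, with 9 markers above 0 and 12 below. By the test 1 of the 21 rose and 3 fell, beside 3.2% of all probe sets that passed. Many of these markers were very bright with narrow ranges, such as 14.45 to 14.56 for Cela2a, which limits what their median can show. The widest ranges of the list over the arrays were those of the amylases, 4.41 to 10.72 for Amy1a and 6.45 to 13.2 for Amy2a3. The part of the markers in the level of Nupr1 was not tested.

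The genes whose values were most like Nupr1 over the 12 arrays were Jade1, a subunit of histone acetyltransferase complexes, Bub3, a mitotic checkpoint protein, and Pan3, a subunit of a poly(A) nuclease. Among 12782 other probe sets with 1 symbol, Pearson's r was 0.93 for each of them and Spearman's rho was 0.84, 0.90 and 0.85. Without DU1 and DU3, the arrays farthest from the median of Nupr1, r was 0.92, 0.89 and 0.87. All of the points share the 4 groups, so that these correlations describe the arrays and carry no p-value. Pan3, for instance, ranged from 7.18 to 7.39 in HU, 7.98 to 8.05 in DU and 7.37 to 7.61 in DT animals.

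Of the 34 further genes listed for the integrated stress response, the unfolded protein response and p53-linked stress, 28 were measured. In DU vs. HU none rose and 2 of 28 fell, beside 3.2% of all probe sets that passed, with a list median of 0.08 beside -0.02 for all. In this comparison 7 of 28 had an unadjusted p below 0.05, against 20.2% of all probe sets. In DT vs. DU 3 of 28 rose and none fell, beside 1.12% of all, with a median of 0.01 beside 0. The 2 that fell in DU animals, Sel1l and Xbp1, act in the unfolded protein response of the endoplasmic reticulum. Sel1l, an adaptor of the degradation of misfolded proteins, averaged 10.99 ± 0.17 on the HU, 9.96 ± 0.04 on the DU and 11.12 ± 0.13 on the DT arrays (SD, n = 3 each). It fell by 1.04 in DU vs. HU (SE 0.11, adjusted p = 9.38e-05) and rose by 1.16 in DT vs. DU (SE 0.11, adjusted p = 4.3e-05). Xbp1, a transcription factor that maintains secretory cells, was 11.80 ± 0.05, 11.23 ± 0.09 and 12.04 ± 0.04 in the same groups. Both genes ran opposite to Nupr1, which was highest in DU animals.

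Trib3, a pseudokinase induced by Atf4, was the third gene of this list that rose in DT animals. It averaged 7.21 ± 0.11 on the HU, 7.70 ± 0.13 on the DU and 8.39 ± 0.21 on the DT arrays (SD, n = 3 each), which gave 0.69 for DT vs. DU (SE 0.13, adjusted p = 0.0218) and 1.18 for DT vs. HU (SE 0.13, adjusted p = 0.00113). These values are of its brightest probe set, and its other probe sets gave 0.26 (adjusted p = 0.279) and 0.60 (adjusted p = 0.076) for DT vs. DU. For DT vs. HU they gave 0.50 (adjusted p = 0.0145) and 0.51 (adjusted p = 0.105). Unlike Trib3, Nupr1 had its highest level in DU animals. Other genes of the integrated stress response did not pass, with differences in DU vs. HU of 0.20 for Atf4 (adjusted p = 0.547), -0.03 for Atf3 (0.894), -0.13 for Ddit3 (0.559) and 0.07 for Asns (0.715). Larger rises that also missed the threshold were 0.49 for Trib3 (adjusted p = 0.067), 0.48 for Chac1 (0.657), 0.45 for Cebpg (0.0694) and 0.30 for Ppp1r15a (0.124). Of the 28 measured genes of the list, 17 differed by more than 0 in DU vs. HU and 11 by less. Herpud1, a membrane protein of the endoplasmic reticulum, showed a wider difference, 0.95 (adjusted p = 0.155). Atf3, Atf4, Ddit3, Asns, Chac1, Cebpg, Ppp1r15a and Herpud1 were chosen after their values were seen.

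**Figure D4:**
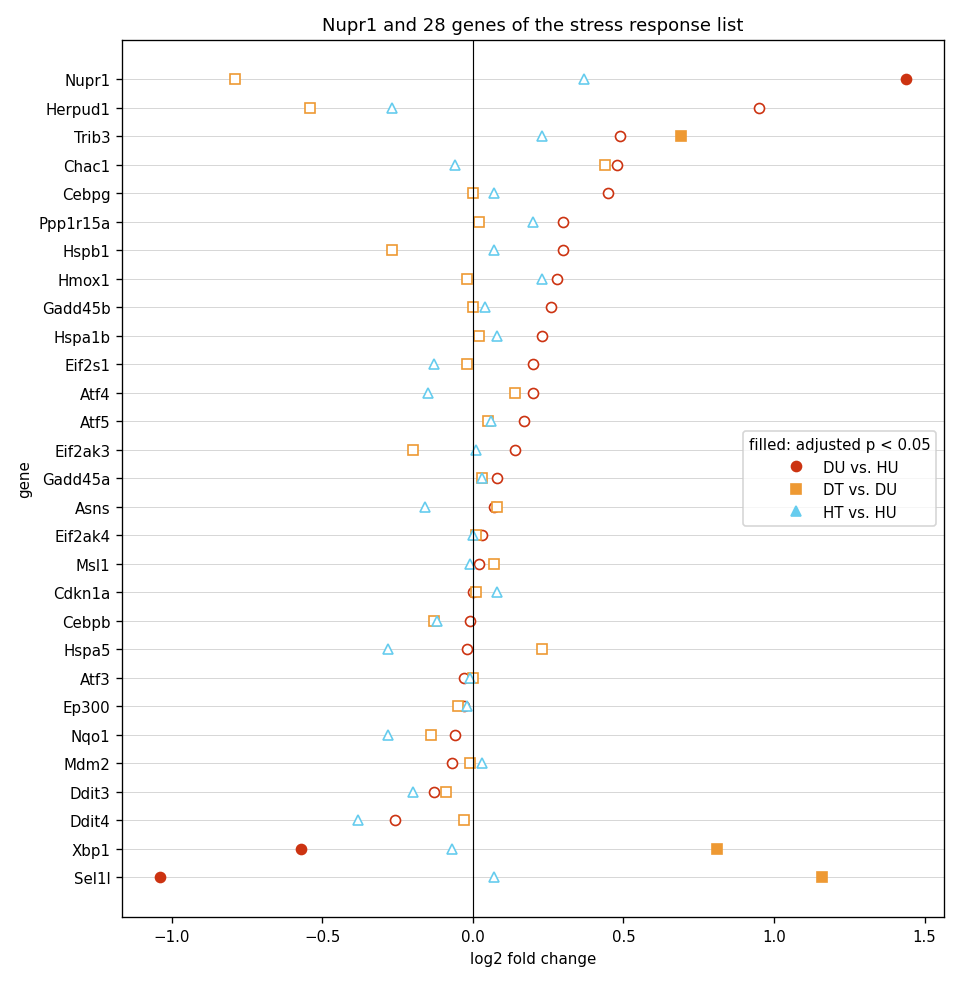
Log2 fold change (horizontal axis) of Nupr1 and the 28 measured genes of the stress response list in DU vs. HU (circles), DT vs. DU (squares) and HT vs. HU (triangles), with filled symbols for an adjusted p below 0.05. Nupr1 has the widest difference in DU vs. HU, 1.44, whereas Sel1l at -1.04 and Xbp1 at -0.57 are the list's only filled circles.

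Clu was the member whose level stood apart in DT animals, and here the 2 probe sets of the gene are given separately. Probe set A measured 11.78, 11.82 and 11.90 in HU animals and 11.76, 11.61 and 11.75 in HT animals. In DU animals it measured 11.36, 11.65 and 11.49, and in DT animals 9.45, 8.99 and 10.79. The 9 arrays outside the DT group lay within 0.54 of each other, and DT1 and DT2 were much lower than DT3. The group means were 11.83 ± 0.06, 11.71 ± 0.08, 11.50 ± 0.15 and 9.74 ± 0.94 in HU, HT, DU and DT animals.

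Probe set A was lower in DT animals than in each of the other groups. It differed by -1.75 from DU (SE 0.31, adjusted p = 0.0111), by -2.09 or 4.25-fold from HU (SE 0.31, adjusted p = 0.00589) and by -1.96 or 3.90-fold from HT animals (SE 0.31, adjusted p = 0.0085). These comparisons share the DT arrays. In each of them it was the only one of the 7 probe sets that passed, against 1.12% of all probe sets in DT vs. DU, 1.32% in DT vs. HU and 0.933% in DT vs. HT. Arrays did not overlap for 2 of 7 members in DT vs. DU, 2 of 7 in DT vs. HU and 3 of 7 in DT vs. HT, against 13.9%, 21.1% and 15.9% of all. In DU vs. HU the difference was -0.34 (SE 0.31, adjusted p = 0.584), although all DU arrays were below all HU arrays.

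Probe set B of Clu gave smaller differences of the same sign. It measured 7.09, 7.07 and 7.27 in HU animals and 6.98, 7.23 and 7.11 in HT animals. In DU animals it measured 6.62, 7.0 and 6.90, and in DT animals 6.48, 6.66 and 6.85. DT and DU arrays overlapped, with a difference of -0.18 (SE 0.12, adjusted p = 0.718), and DT arrays were below all HU arrays, with a difference of -0.48 (SE 0.12, adjusted p = 0.0699). The probe sets therefore disagreed in size, and B did not pass in any comparison. It was less bright than A, but lay near the middle of the probe sets, at percentile 45.9 to 66.1 of each array.

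The fall of probe set A was uneven within the DT group and moved with other measures of the same arrays. Within chip lot 1, DT1 and DT2 were -2.28 from DU1 and DU2 and -2.68 from HU3, whereas DT3 was -0.95 from HT3, with which it shared scan day and lot. Without DU2 or without DT1 the difference between DT and DU animals no longer passed (adjusted p = 0.0585 and 0.0573), and with only the 6 DT and DU arrays in the fit it did not pass either (adjusted p = 0.143). The interaction was -1.63 (SE 0.44, adjusted p = 0.209), and without DT3 it was -2.15 and passed (adjusted p = 7.56e-05). None of the 7 probe sets passed limma's adjusted test of the interaction with all arrays in the fit, in which 0.422% of all probe sets did, and 2 of 7 had an unadjusted p below 0.05, against 8.75% of all.

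On DT1 and DT2, where Clu was lowest, the means of several marker lists were lowest too. The mean of 18 stellate cell and fibroblast markers was 7.36 on DT1, 7.42 on DT2 and 7.93 on DT3, against 7.76 to 8.16 on the other arrays. The mean of 18 leukocyte markers was 6.99, 7.25 and 8.04 in the same order, against 7.42 to 8.21 on the others. The mean of 7 endothelial markers was 6.95, 7.04 and 7.28, against 7.13 to 7.37, and that of 6 adipocyte markers 6.88, 6.78 and 6.97, against 6.92 to 7.39. Of 12 listed B cell and lymph node markers only 2 were measured, Cd79b and Cxcl13. Their mean was 6.75, 6.69 and 7.09, against 6.90 to 7.91. These lists thus moved together on DT1 and DT2. The 21 acinar markers averaged 13.40, 13.36 and 13.27, within the range of the healthy arrays, as the plot of Clu against the marker means shows. None of the stellate or leukocyte markers was among the dimmest 25% of probe sets on all arrays, but Pdgfrb and Cd3e were on 11 and Ptprc on 10. Of the 6 adipocyte markers, 1 was on all arrays. The part of these cell types in the level of Clu was not tested.

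**Figure D5:**
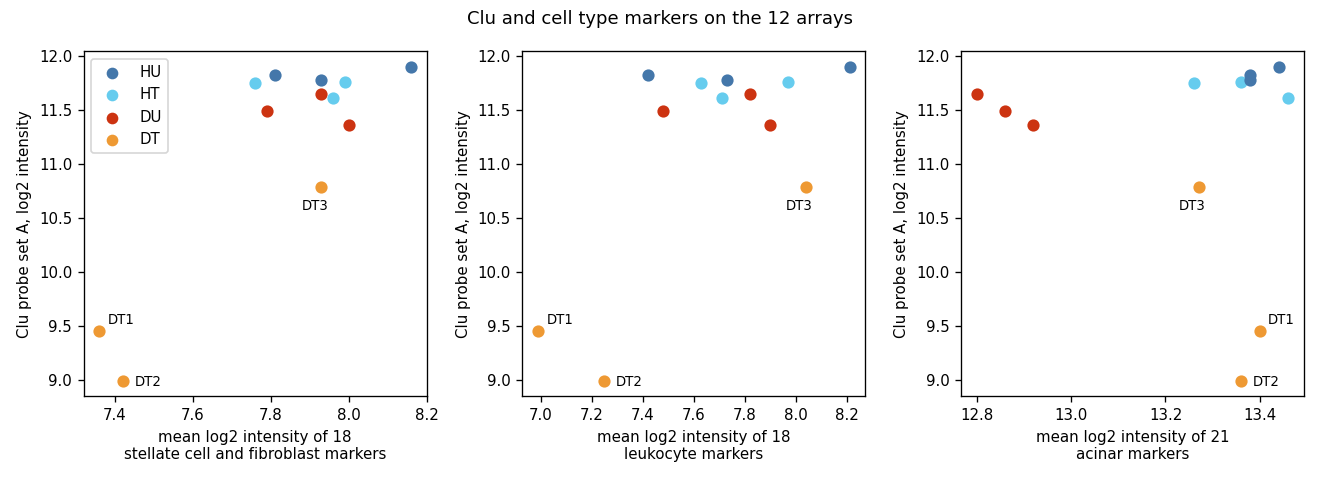
Log2 intensity of Clu probe set A (vertical axes) against the mean log2 intensity of stellate cell and fibroblast, leukocyte and acinar markers (horizontal axes, left to right), 1 point per array, coloured by group. DT1 and DT2 are lowest for Clu and for the first and second marker means, while DT3 at 10.79 has marker means within the range of the other arrays.

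The genes most like Clu probe set A over the 12 arrays were Col1a1, a fibrillar collagen of fibroblasts, Ctsb, the lysosomal protease cathepsin B, and Ifngr2, a subunit of the interferon gamma receptor. Pearson's r was 0.93, 0.92 and 0.91 and Spearman's rho 0.78, 0.54 and 0.75. Without DT1 and DT2, r fell to 0.66, 0.38 and 0.55, so that the likeness rested largely on those arrays. Col1a1 is itself one of the stellate cell markers, and it ranged from 7.56 to 8.11 in DT animals against 8.16 to 8.42 on the other arrays.

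Of 26 genes listed with clusterin as chaperones, lipoprotein receptors or complement factors, 20 were measured. In DU vs. HU 1 of 20 rose and none fell, beside 3.2% of all probe sets that passed, with a median of 0.04 beside -0.02 for all probe sets, and in DT vs. DU 1 of 20 fell and none rose, beside 1.12% of all, with a median of -0.12 beside 0. C3, the central complement component, rose by 0.40 in DU vs. HU (SE 0.09, adjusted p = 0.0318). Serping1, the C1 inhibitor, averaged 9.03 ± 0.17 on the DU and 8.11 ± 0.45 on the DT arrays (SD, n = 3 each), a fall of 0.92 (SE 0.19, adjusted p = 0.035). Cd59, which blocks the terminal complement complex as clusterin does and is annotated as Cd59b on the array, was lower in DT than in HU animals, with -0.67 (SE 0.15, adjusted p = 0.0453).

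Of 36 further genes of pancreatitis and tissue injury, 31 were measured, and in DU vs. HU 1 of 31 rose and none fell, beside 3.2% of all probe sets that passed, with a median of 0.04. The one that rose was Myc, a transcription factor of growth, with 0.64 (SE 0.16, adjusted p = 0.0408). In DT vs. DU 1 rose and 2 fell, beside 1.12% of all, with a median of -0.08. Egr1, an immediate early transcription factor, rose by 0.83 (SE 0.18, adjusted p = 0.0432), whereas Spp1, the matrix protein osteopontin, which is also on the list of duct markers, fell by 0.53 (SE 0.11, adjusted p = 0.0319). Lcn2, an iron-sequestering acute phase protein, fell by 0.49 (SE 0.10, adjusted p = 0.037). The means of the stellate cell, leukocyte, endothelial, adipocyte, and B cell and lymph node markers were lowest on DT1 and DT2. They stand beside the falls of Serping1, Spp1 and Lcn2 in DT animals, and their part in these falls was not tested.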

How the data were processed

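The authors made the deposited values, which are log2 intensities, by RMA (background adjustment, quantile normalization, summary per probe set) with the affy package, in a version not given in the sources here. Groups came from the sample titles, and scan days and chip lots from the array records. A mean for each of 4 groups was fitted with limma 3.58.1 in R 4.3.3 to 15866 probe sets (57 controls left out; 12783 with 1 gene symbol, 312 with several, 2771 with none), with Benjamini-Hochberg adjustment within each of 6 contrasts. The fit was tested on simulated data. A list gene was represented by its brightest probe set. The genes named are the members, list genes that passed in DU vs. HU, DT vs. DU or DT vs. HU, and the 3 genes most correlated with each member that passed. Stat3, Atf3, Atf4, Ddit3, Asns, Chac1, Cebpg, Ppp1r15a and Herpud1 were added after their values were seen, as were single marker genes named to describe their lists. Members, lists and tests were chosen with earlier results of these data known. Windows were aligned with Biopython 1.88 (match 2, mismatch -1, gap opening -3, gap extension -1). Settings tried beside these were median centring or quantile normalization, removal of the dimmest 25% of probe sets, a fit to the compared arrays alone, the trend and robust options of limma, a block for the replicate number, the chip lot or the day of the scan, a B-statistic above 0, each array left out and, added after seeing the data, chip lot 3 left out. Arrays have no read depth, and their number limits the precision.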

Additional observations from a re-analysis of the deposited data

Results flagged for a closer look

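For 2 genes of the stress response list, the effect of tungstate differed between diabetic and healthy animals by the interaction test of limma. It was 1.09 for Sel1l (SE 0.15, adjusted p = 0.0041) and 0.88 for Xbp1 (SE 0.11, adjusted p = 0.0017), on the log2 scale.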

How the results depend on the processing

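Of the counts of member probe sets that passed, 17 moved by over 1.5 times among 131 recomputed. With only the arrays compared, the count was 0 in DT vs. DU, DT vs. HU and DT vs. HT, where Clu probe set A had adjusted p-values of 0.143, 0.0747 and 0.0927. With scan day as a block it was 0 in DU vs. HU, DT vs. HU and DT vs. HT and 1 in the interaction, where Clu probe set A was -1.93 (adjusted p = 0.0238). The day block gave no weight to DU2, DU3, HU1 and HU2, since no other group shared their scan days. With chip lot as a block the count was 0 in DT vs. HT (Clu probe set A -1.81, adjusted p = 0.06). Leaving out single arrays gave counts of 0 to 1 in DT vs. DU, 1 to 2 in DT vs. HU, 0 to 2 in DT vs. HT and 0 to 1 in the interaction. Without DT1, Clu probe set A did not pass in DT vs. DU (0.0573) or DT vs. HT (0.0537), while Nupr1 passed in DT vs. DU (0.0478). Without DT2, Nupr1 passed in DT vs. HU (0.00561), and without DT3, Clu probe set B passed in DT vs. HU (0.0357) and DT vs. HT (0.0494). Without chip lot 3 the count was 2 in DT vs. HU and 1 in the interaction. The cause was not tested.

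Same-numbered arrays of different groups did not deviate together on average (mean correlation 0.02, from -0.29 to 0.31 over 18 pairs). With so few arrays this cannot exclude a pairing. The labels do not say what the numbers mark, and the arrays were not treated as paired. With the replicate block, 2 probe sets passed in DT vs. HU, Clu probe set B being gained (adjusted p = 0.0355), and no other count moved by over 1.5 times.

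Signs turned mainly for the Reg genes, none of which passed. With scan day as a block, which gave no weight to DU2, DU3, HU1 and HU2, signs turned as follows. DU vs. HU, which linked DU1 to HU3 only through treated arrays, was -0.68 for Reg1a, -2.29 for Reg3a, -1.71 for Reg3b and 0.98 for Clu probe set A. DT vs. DU, which rested on scan day 1 alone, was 1.78 for Reg3a, 0.79 for Reg3b and 0.31 for Reg3g. DT vs. HU was -0.70 for Reg1a and -0.50 for Reg3a. HT vs. HU was 0.24 for Reg3g, DT vs. HT was -0.60 for Reg3b and -0.27 for Reg3g, and the interaction was 1.11 for Reg3b and 0.11 for Clu probe set B. Reg3g also turned with chip lot as a block (0.17 in DU vs. HU, 0.08 in DT vs. HU) and with quantile normalization and median centring (0.01 in DU vs. HU). Without chip lot 3, DT vs. DU was 0.43 for Reg3a and 0.22 for Reg3g, DT vs. HU was 0.02 for Reg3g and the interaction was 1.30 for Reg3b. Leaving out single arrays, DT vs. HU ranged from -0.35 to 0.40 for Reg1a, -1.08 to 1.59 for Reg3a, -1.71 to 0.51 for Reg3b and -0.33 to 0.14 for Reg3g. The interaction ranged from -0.07 to 0.68 for Reg1a, -1.18 to 1.19 for Reg3a, -1.96 to 0.60 for Reg3b and -0.17 to 0.31 for Reg3g. Reg3g ranged from -0.24 to 0.24 in DU vs. HU, -0.23 to 0.11 in DT vs. DU, -0.40 to 0.08 in HT vs. HU and -0.02 to 0.19 in DT vs. HT, and Clu probe set B from -0.10 to 0.03 in HT vs. HU.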
